A study of Mus musculus with 4 samples.

Results

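The transcripts described here are those of 10 genes published as direct targets of the microRNA miR-155: Inpp5d, Ets1, Il6ra, Jarid2, Bach1, Cebpb, Peli1, Spi1, Ikbke and Tab2. They were chosen by gene symbol and all 10 were found among the 27998 genes of the files. They were followed in T cells, the cells in which miR-155 was deleted, and in natural killer (NK) and myeloid cells of the same tumours, which were not targeted. The immune infiltrate of B16F10-OVA tumours, a mouse melanoma line that carries ovalbumin as a model antigen, was read by single-cell 3' RNA sequencing in droplets. Hosts were miR-155 TCKO mice, which lack miR-155 in T cells, or wild-type (WT) mice, all on C57BL/6. All mice received 1000000 tumour cells under the skin, tumours were taken at day 9 or day 12, and live CD45-positive cells were sorted from tumours pooled from more than 4 mice. There were 4 libraries: TCKO day 9, WT day 9, TCKO day 12 and WT day 12. The labels do not name the Cre driver or the bounds of the deleted segment. The day of harvest and the run in which a library was prepared cannot be told apart.

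MicroRNAs guide an Argonaute protein to messenger RNAs, mostly through pairing of bases 2 to 8 (the seed) with the 3' untranslated region (3' UTR), and this lowers the stability and translation of the messenger. miR-155 is cut from the transcript of its host gene Mir155hg, which is induced by antigen receptor and Toll-like receptor signals in lymphocytes and myeloid cells. It is known for sustaining effector CD8 T cell responses, partly through lowering of inhibitors of cytokine and phosphoinositide signalling.

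The mature miRNA and 1 seed match of each gene are shown, since they are the features that make these genes candidate targets. Capitals mark the seed in the miRNA, which is RefSeq's, and the matched bases in the sites, which were read from the 3' UTR of GENCODE vM21 transcripts (mm10). The longest possible match here is the 8-base AGCATTAA, and AGCATTA and GCATTAA are the 7-base matches. Each site is given 5' to 3' on the strand of its gene.
mmu-miR-155-5p, chr16:84714143-84714165, plus strand: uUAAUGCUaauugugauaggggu
Inpp5d (ENSMUSG00000026288), chr1:87719821-87719848, plus strand: ctgagatgtttttaaaaAGCATTAAaga
Ets1 (ENSMUSG00000032035), chr9:32757191-32757218, plus strand: agcactctgggttttaaAGCATTAAcct
Jarid2 (ENSMUSG00000038518), chr13:44920076-44920103, plus strand: agaactgattttgttttAGCATTAAact
Bach1 (ENSMUSG00000025612), chr16:87732171-87732198, plus strand: ctctctatgaacagtttAGCATTAAggg
Cebpb (ENSMUSG00000056501), chr2:167690349-167690376, plus strand: gaaccttttccgtttcgAGCATTAAagt
Spi1 (ENSMUSG00000002111), chr2:91115420-91115447, plus strand: tggaccccgccggccatAGCATTAAccc
Tab2 (ENSMUSG00000015755), chr10:7906688-7906715, minus strand: aatgccataaggtagaaAGCATTAAtga
Il6ra (ENSMUSG00000027947), chr3:89869537-89869564, minus strand: ctaggggccactgacctaAGCATTAgtt
Ikbke (ENSMUSG00000042349), chr1:131255150-131255177, minus strand: gccattggccaacaaactAGCATTActt
Peli1 (ENSMUSG00000020134), chr11:21148604-21148631, plus strand: tctctgctctggtcatttGCATTAAgat

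All 10 genes held at least 1 seed match in their longest annotated 3' UTR, and 7 of the 10 held the 8-base match. Among 20725 genes with a 3' UTR, 12.7% held any of these matches and 3.0% held the 8-base match. Since the genes were chosen as published targets, this share describes the choice and is not a finding. Jarid2 held an 8-base match at 2 places, and Bach1 held 1 further 7-base match. Il6ra held 2 and Ikbke 1 of the AGCATTA kind, and Peli1 had the GCATTAA kind alone. No other annotated gene overlapped the last 500 bases of any of the 10 genes, the part that a 3' tag reads.

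Cells were grouped into classes by clustering without the 10 genes, and a class carries the name of its markers. After filtering, 3625, 1752, 2001 and 3566 cells remained in TCKO day 9, WT day 9, TCKO day 12 and WT day 12, and the libraries held between 18783490 and 33902064 UMIs (unique molecular identifiers, 1 per captured transcript). Pairs of libraries shared 4 to 16 cell barcodes, of which at most 4 fell in the same class. The CD8 T cell class held 374, 711, 81 and 277 cells in that order. Its Cd3e level lay between 293 and 603 CPM (UMIs per 1000000 UMIs of the class in a library), and its level of Ncr1, an NK cell receptor, was at most 10.4 CPM. The other T cells held 341, 100, 115 and 181 cells with Cd3e between 292 and 411 CPM and Cd8b1 at most 142 CPM. CD8 T cells differed in depth and in make-up between genotypes: the median UMIs per cell were 4756.5, 11848, 3925 and 4185, and clusters with naive T cell markers held 88.0%, 17.3%, 76.5% and 48.0% of the class. The summed level of 11 NK cell markers in CD8 T cells, among them cytotoxic genes that effector CD8 T cells share, was 359 and 374 CPM in TCKO at day 9 and day 12, against 885 and 540 CPM in WT. All 11 were detected except in TCKO day 12, where 9 were. The 16 monocyte and macrophage markers summed to 1778 to 2093 CPM, with 13 to 15 of them detected. Lyz2, a myeloid lysozyme gene among them, was at only 46.8 to 281 CPM. Which genes of this list CD8 T cells express themselves was not tested. The part of these shifts in the results was not tested. With 1 library per genotype and day there is no test at a single day, and intervals there are exact 95% intervals for counting error. Tests of genotype used edgeR's quasi-likelihood method on the sums of a class in all 4 libraries, with terms for genotype and day. This fit has 1 residual degree of freedom and is adjusted over all genes tested. Its spread is that between libraries, taken mostly from the trend over genes (17.0 prior degrees of freedom in CD8 T cells).

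Mir155hg (ENSMUSG00000097418, chr16:84703167-84715245, plus strand) was read first, since it checks the labels. CD8 T cells held 0 Mir155hg UMIs in both TCKO libraries, against 91 and 17 UMIs (9.06 and 10.3 CPM) in WT at day 9 and day 12. With a floor of 3 counts per library this is at least 6.69-fold lower at day 9 and at least 1.31-fold lower at day 12, values that include the different make-up of the class. NK cells held 4 and 12 UMIs in TCKO (3.12 and 5.99 CPM), against 6 and 11 in WT (3.84 and 3.98 CPM). Monocytes or macrophages were at 0.126 to 1.01 CPM in the 4 libraries. Whether the 3' tag lies inside the deleted segment is not known from the labels. Inside WT CD8 T cells the transcript was mostly outside the naive-like clusters, which held 1 and 2 of its UMIs, while the other CD8 T cells held 90 and 15. Outside those clusters alone, Mir155hg was at 9.63 CPM in WT at day 9, 2.01 times the floor in TCKO. The interval of the ratio, TCKO over WT, ended there at 0.624. At day 12 the WT level of 12.9 CPM lay below the floor of the 19 TCKO cells (26.4 CPM). The interval of the ratio, which ended at 2.85, included equal levels.

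In CD8 T cells, 3 of the 10 targets rose in TCKO: Ikbke, a kinase that activates interferon regulatory factors and modulates NF-kB, Il6ra, the ligand-binding chain of the interleukin-6 receptor, and Peli1, a ubiquitin ligase of Toll-like receptor and T cell receptor signalling. None of the other 7 passed the test in either direction. The 3 genes were higher in TCKO at both days. Across all 8346 genes tested in CD8 T cells, 4.27% rose and 5.21% fell by edgeR's quasi-likelihood test. The median log2 fold change of the 10 targets was 0.42, against 0.02 over all genes tested. Among targets with enough UMIs, the median log2 ratio of the class was 0.62 at day 9 and 0.49 at day 12. Over all genes it was -0.14 and -0.04. Inside the naive-like clusters the targets had medians of -0.01 and 0.06 at the same days, against -0.14 and 0.01 over all genes. In the other CD8 T cells they had 0.04 and 0.51, against 0.08 and 0.12. The part of cell make-up in the median of 0.42 was not tested.

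**Figure D1:**
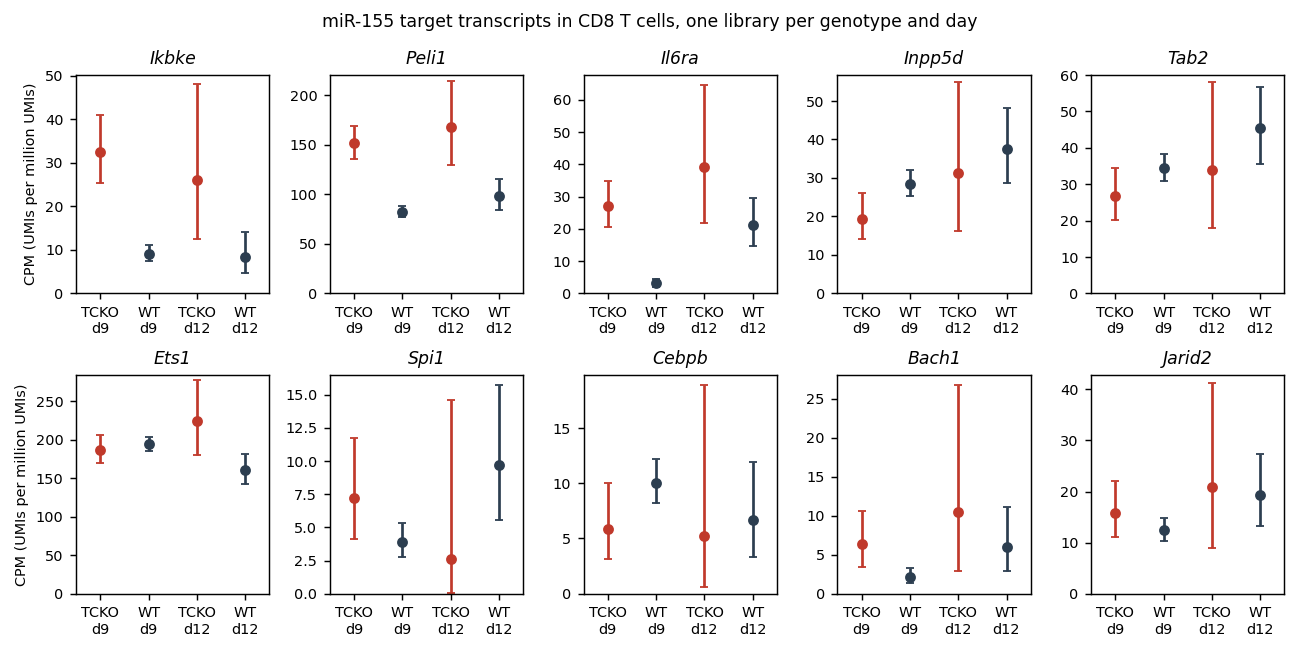
Levels of the 10 targets in CD8 T cells of the 4 libraries, in CPM (linear axis from 0, own scale per gene), TCKO in red and WT in dark blue, with exact Poisson 95% intervals for counting error. Ikbke lies at 32.5 and 26.2 CPM in TCKO against 9.16 and 8.47 CPM in WT, and Peli1 likewise has both TCKO points above both WT points, while Ets1 and Jarid2 overlap.

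Ikbke (chr1:131254343-131279606, minus strand) stood at 32.5 CPM in TCKO and 9.16 CPM in WT at day 9, from 72 and 92 UMIs. At day 12 it stood at 26.2 CPM in TCKO and 8.47 CPM in WT, from only 10 and 14 UMIs. Both TCKO libraries lay above both WT libraries. The log2 ratio, TCKO over WT, was 1.83 (95% interval 1.36 to 2.29) at day 9 and 1.63 (0.30 to 2.90) at day 12. Over both days the fitted log2 fold change was 1.90 (SE 0.33), with an adjusted p of 0.00105 in edgeR's quasi-likelihood test.

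Peli1 (chr11:21091291-21150323, plus strand) stood at 151.7 CPM in TCKO and 82.2 CPM in WT at day 9, and at 167 CPM in TCKO and 98.6 CPM in WT at day 12. Its counts were the largest of the 3, with 336 and 826 UMIs at day 9 and 64 and 163 at day 12. Here too the groups did not overlap, and the intervals of the log2 ratio lay above 0 at both days, at 0.88 (0.70 to 1.07) and 0.76 (0.32 to 1.19). The fitted log2 fold change was 0.95 (SE 0.19, adjusted p 0.00257 in edgeR's quasi-likelihood test).

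Il6ra (chr3:89864059-89913196, minus strand) stood at 27.1 CPM in TCKO and 3.09 CPM in WT at day 9, a log2 ratio of 3.13 (2.49 to 3.81) from 60 and 31 UMIs. At day 12 it stood at 39.2 CPM in TCKO and 21.2 CPM in WT, a log2 ratio of 0.89 with an interval (-0.09 to 1.80) that includes 0. The WT library of day 9 was thus far below the other 3 libraries. The fitted log2 fold change was 2.31 (SE 0.43, adjusted p 0.00181 in edgeR's quasi-likelihood test), and it became 0.63, no longer past the threshold, without that WT library.

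The 3 calls rest on how the 4 libraries are used. None of the 3 genes passed under DESeq2's Wald test (adjusted p 0.133 for Ikbke, 0.0640 for Il6ra and 0.160 for Peli1), without the day term, or without either TCKO library, and Ikbke alone passed without the WT library of day 9 (adjusted p 0.0115 in edgeR's quasi-likelihood test). Those settings called few genes at all. DESeq2 had 66 rising and 80 falling genes of 14240, and no day term gave 1 and 1 of 8346, against 356 and 435 of 8346 with the terms used here. Without either TCKO library 0 genes were called (of 8521 for day 9 and 8998 for day 12), and without the WT library of day 9 there were 64 rising and 100 falling of 8374. All 3 were higher in TCKO in 12 of 12 alternatives, with log2 fold changes of 1.63 to 2.02 for Ikbke, 0.78 to 1.05 for Peli1 and 0.63 to 3.41 for Il6ra.

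The same genes were also higher in naive-like than in the other CD8 T cells of either genotype, and TCKO had the larger share of naive-like cells. For Ikbke the interval of this ratio excluded equal levels in WT day 9 only. In WT at day 9, naive-like cells held 18.5-fold (8.55 to 41.0) more Il6ra, 3.47-fold (1.98 to 5.81) more Ikbke and 1.71-fold (1.37 to 2.12) more Peli1 than the other CD8 T cells, as a ratio of CPM. In WT at day 12 the ratios were 3.19 for Il6ra, 2.80 for Peli1 and 1.79 for Ikbke, the last from 6 and 8 UMIs. The naive-like clusters held 329, 123, 62 and 133 cells in TCKO day 9, WT day 9, TCKO day 12 and WT day 12, and the remaining CD8 T cells 45, 588, 19 and 144. One naive-like cluster was led by interferon-induced genes (Ifit1, Ifit3, Isg15). Of the other 2, one had Igfbp4, Ccr7 and Lef1 among its leading genes, and one had Il7r, Gpr183 and Tcf7.

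Within naive-like cells, Ikbke was at 35.9 CPM in TCKO and 27.1 CPM in WT at day 9, and at 29.8 and 12.3 CPM in TCKO and WT at day 12, from 8 and 6 UMIs. Peli1 was at 180.2 CPM in TCKO and 134 CPM in WT at day 9, and at 201 and 180.4 CPM in TCKO and WT at day 12. Il6ra was at 33.4 CPM in TCKO and 25.7 CPM in WT at day 9, and at 55.9 and 41.0 CPM in TCKO and WT at day 12. TCKO was thus higher in all 6 of these pairs, by less than in the class as a whole. Only Peli1 at day 9 had an interval above 0 (log2 ratio 0.43, 0.09 to 0.78). The intervals of Ikbke (-0.36 to 1.24 and -0.44 to 3.08) and Il6ra (-0.42 to 1.24 and -0.62 to 1.49) included 0. So did that of Peli1 at day 12 (-0.36 to 0.66). The genes were picked by their rise in the class that holds these cells, so the shared direction is not separate evidence.

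Among the CD8 T cells outside the naive-like clusters, Ikbke was at 23.9 CPM in TCKO and 7.81 CPM in WT at day 9. At day 12 it was at 17.6 and 6.86 CPM in TCKO and WT, from 2 and 8 UMIs. Its log2 ratio had an interval above 0 at day 9 (1.61, 0.71 to 2.43), while that of day 12 (-1.92 to 3.68) included 0. Peli1 was at 79.7 CPM in TCKO and 78.3 CPM in WT at day 9, and at 87.8 and 64.3 CPM in TCKO and WT at day 12. Both of its intervals (-0.42 to 0.44 and -0.67 to 1.41) included 0. Il6ra was at 11.2 CPM in TCKO and 1.39 CPM in WT at day 9. At day 12 it had 0 UMIs in TCKO and 15 UMIs in WT, where the 19 TCKO cells held too few UMIs for a comparison. The class in which these genes were picked holds these cells too, so their direction here is not separate evidence.

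Neither stratum alone gave a call. In naive-like cells the fit over both days had log2 fold changes of 0.71 for Ikbke, 0.48 for Il6ra and 0.39 for Peli1 (adjusted p 0.628, 0.740 and 0.642 in edgeR's quasi-likelihood test). Outside them the values were 1.47, 1.49 and 0.07 (adjusted p 0.519, 0.868 and 0.977). These fits had fewer cells and made few calls at all, 13 rising and 44 falling genes of 4949 in naive-like cells, and 27 and 12 of 6437 in the others. With both strata given equal weight, a calculation added after the data were seen, the ratio of TCKO to WT was 1.71 and 2.47 for Ikbke at day 9 and day 12, 1.65 and 1.04 for Il6ra, and 1.22 and 1.18 for Peli1.

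**Figure D2:**
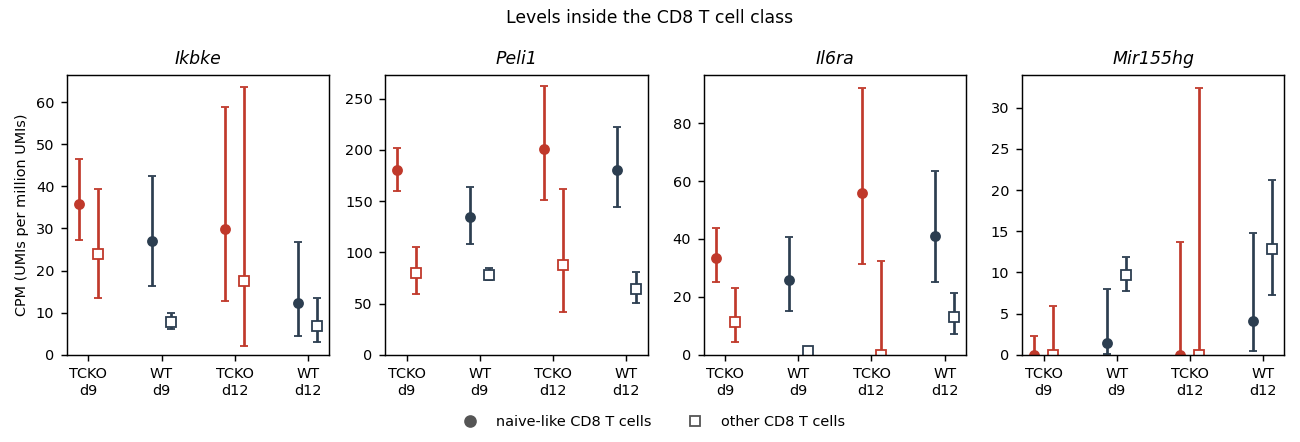
Levels of Ikbke, Peli1, Il6ra and Mir155hg inside the CD8 T cell class, in CPM on linear axes from 0, for naive-like CD8 T cells (filled circles) and other CD8 T cells (open squares) of each library, with exact Poisson 95% intervals for counting error. Peli1 and Il6ra separate by cell state in both genotypes, for example Peli1 at 134 and 78.3 CPM in WT day 9, and Mir155hg is found in the WT libraries alone, mostly in the other CD8 T cells.

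The remaining signalling genes among the targets did not pass the test in CD8 T cells. Inpp5d encodes SHIP1, the phosphatase that removes the 5-phosphate from the product of PI3K and limits Akt signalling. It stood at 19.4 CPM in TCKO and 28.5 CPM in WT at day 9 (log2 ratio -0.55, -1.05 to -0.09), and at 31.4 CPM in TCKO and 37.5 CPM in WT at day 12 (-0.26, -1.28 to 0.65). Its fitted log2 fold change was -0.33 (SE 0.27, adjusted p 0.541 in edgeR's quasi-likelihood test), the direction opposite to that of the 3 genes that rose. Tab2, an adaptor that links TRAF6 to the kinase TAK1, stood at 26.6 CPM in TCKO and 34.4 CPM in WT at day 9, and at 34.0 CPM in TCKO and 45.4 CPM in WT at day 12. Its log2 ratio was -0.37 (-0.79 to 0.03) and -0.42 (-1.39 to 0.45) at day 9 and day 12, and the fitted value was -0.26 (SE 0.25, adjusted p 0.618).

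Of the transcription factors, Ets1, which is required for normal T and NK cell development, was abundant in CD8 T cells of all 4 libraries. It stood at 187 CPM in TCKO and 194 CPM in WT at day 9 (log2 ratio -0.06, -0.21 to 0.10), and at 225.0 CPM in TCKO and 161 CPM in WT at day 12 (0.48, 0.12 to 0.84). The groups overlapped, and the fitted log2 fold change was 0.30 (SE 0.20, adjusted p 0.414). Bach1, a repressor of haem and antioxidant genes, stood at 6.32 CPM in TCKO and 2.19 CPM in WT at day 9 (log2 ratio 1.53, 0.45 to 2.56), and at 10.5 CPM in TCKO and 6.05 CPM in WT at day 12, from 4 and 10 UMIs. Both TCKO libraries lay above both WT libraries, yet the fitted log2 fold change of 1.40 (SE 0.55) did not pass (adjusted p 0.134). Jarid2, the subunit that helps recruit Polycomb repressive complex 2 to chromatin, stood at 15.8 CPM in TCKO and 12.4 CPM in WT at day 9, and at 20.9 CPM in TCKO and 19.4 CPM in WT at day 12. Its fitted log2 fold change was 0.40 (SE 0.35, adjusted p 0.579).

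Spi1, which encodes the myeloid and B cell factor PU.1, and Cebpb, a C/EBP factor of monocytes and macrophages, were low in CD8 T cells. Spi1 was at 7.23 CPM in TCKO and 3.88 CPM in WT at day 9, and at 2.62 CPM in TCKO and 9.68 CPM in WT at day 12, from 1 and 16 UMIs. Its fitted log2 fold change was 0.44 (SE 0.58, adjusted p 0.730). These levels were 0.813%, 0.492%, 0.429% and 1.34% of those in monocytes or macrophages of TCKO day 9, WT day 9, TCKO day 12 and WT day 12. Lyz2, a lysozyme gene of myeloid cells, was in CD8 T cells at 0.759%, 0.192%, 1.39% and 1.63% of its macrophage level in the same libraries. The share of Spi1 lay above that of Lyz2 in both day 9 libraries and below it in both day 12 libraries. Cebpb was at 5.87 CPM in TCKO and 10.1 CPM in WT at day 9, and at 5.23 CPM in TCKO and 6.65 CPM in WT at day 12, which is 3.60% to 7.37% of the macrophage level and above the share of Lyz2 in every library. The summed level of the 16 monocyte and macrophage markers in CD8 T cells was 5.10%, 5.24%, 6.56% and 6.64% of that in macrophages in TCKO day 9, WT day 9, TCKO day 12 and WT day 12. Beside these, Cebpb stood at 4.36%, 5.59%, 3.60% and 7.37%, below the list in both TCKO libraries and above it in both WT libraries. Lyz2 was 46.8 of the 1876 CPM of this list in CD8 T cells of WT day 9. The list and Lyz2 thus gave unlike shares, and the list sum may hold transcripts of the CD8 T cells themselves. The part of myeloid RNA in the values of Spi1 and Cebpb was not tested. The fitted log2 fold change of Cebpb was -0.56 (SE 0.51, adjusted p 0.588 in edgeR's quasi-likelihood test).

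At single days, 5 of the 10 targets were at least 1.5-fold higher and 1 was at least 1.5-fold lower in TCKO CD8 T cells at day 9, where the same threshold was passed by 12.9% of 9926 genes upward and 25.1% downward. A gene needed 20 UMIs over the pair of libraries to be counted. At day 12, 3 of the 7 targets with enough UMIs were higher and 0 were lower, beside 12.1% and 21.8% of 6439 genes. The 3 genes at day 12 were Ikbke, Il6ra and Peli1. At day 9 these 3, Bach1 and Spi1 were higher and Cebpb was lower.

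**Figure D3:**
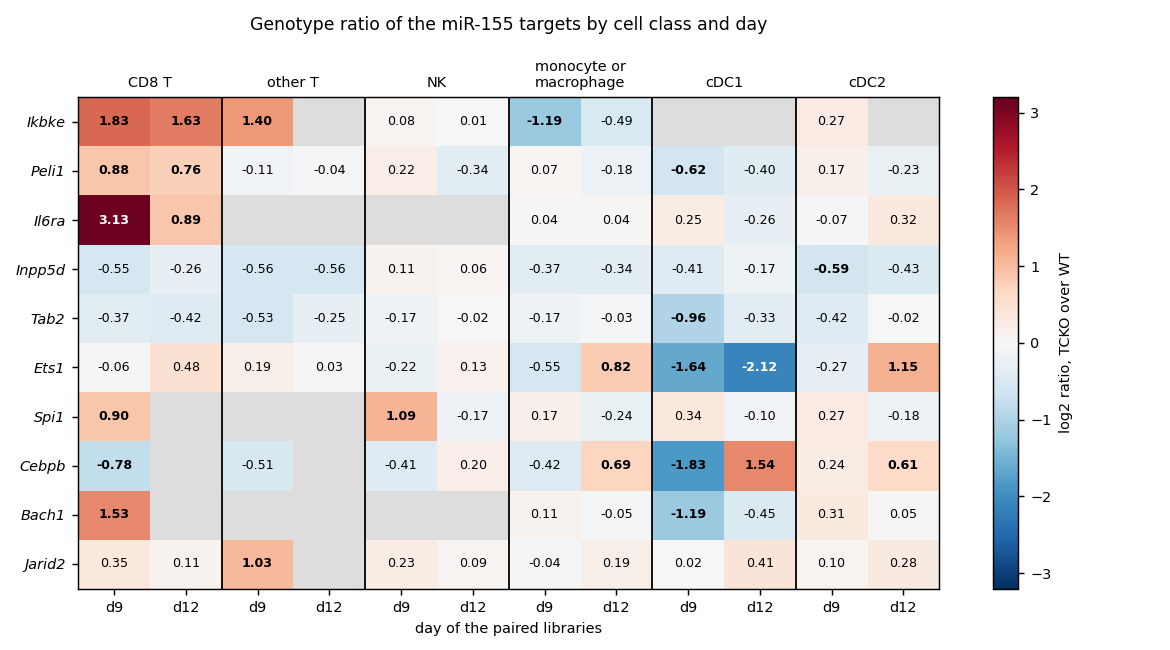
Log2 ratio of the level in TCKO over WT for each target (rows) in 6 cell classes at day 9 and day 12 (columns), with red for higher and blue for lower in TCKO, values past 1.5-fold in bold and grey where the pair held fewer than 20 UMIs. Ikbke, Peli1 and Il6ra are red in both CD8 T columns, and Ikbke is also red in other T cells at day 9 (1.40). The values shown for NK cells stay near 0 apart from Spi1 at day 9 (1.09). Il6ra is grey in NK cells and other T cells.

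In the other T cells no target passed the test. These cells carry Cd3e with little Cd8b1 and express Ikzf2 at 472 to 596 CPM, and 5 of the 10 targets had enough UMIs to be tested. Of 5192 genes, 0.135% were called in either direction by edgeR's quasi-likelihood test. Among the 5 tested targets 0 were called. Inpp5d, with the smallest p of the 5, had a log2 fold change of -0.62 (SE 0.28, adjusted p 0.999 in the same test). Inpp5d stood at 33.7 CPM in TCKO and 49.8 CPM in WT at day 9, and at 36.3 CPM in TCKO and 53.3 CPM in WT at day 12. Peli1, which was at its highest in these cells, did not follow the CD8 T cells. It stood at 210.5 CPM in TCKO and 226.9 CPM in WT at day 9, and at 181 CPM in TCKO and 187 CPM in WT at day 12.

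At day 9, 2 of 7 targets with enough UMIs were past 1.5-fold in the other T cells, both higher in TCKO, beside 12.7% of 6575 genes higher and 9.08% lower. They were Ikbke, at 29.1 CPM in TCKO and 11.1 CPM in WT (log2 ratio 1.40, 0.16 to 2.92, from 45 and 6 UMIs), and Jarid2, at 22.7 CPM in TCKO and 11.1 CPM in WT (1.03, -0.23 to 2.57). At day 12, 0 of 4 were past 1.5-fold, beside 14.4% of 4808 genes higher and 7.74% lower, and Ikbke was at 10.7 CPM in TCKO and 15.7 CPM in WT from 5 and 10 UMIs. Ets1, Cebpb and Tab2 had log2 ratios between -0.53 and 0.19 in the pairs with 20 UMIs or more, and Bach1 and Spi1 had fewer UMIs at both days. Il6ra was nearly absent from the other T cells, with 3 and 0 UMIs in TCKO and 2 and 5 in WT at day 9 and day 12. With all T cells summed, the same 3 targets as in CD8 T cells were called among 9325 genes (9.79% called in either direction by edgeR's quasi-likelihood test). The fit of this sum took its spread entirely from the trend over genes. The log2 fold changes of the 3 targets were 1.24 for Ikbke, 1.23 for Il6ra and 0.74 for Peli1. The difference was mostly that of day 9, with log2 ratios of 1.67 for Ikbke, 2.19 for Il6ra and 0.91 for Peli1. At day 12 the ratios were 0.25, -0.19 and 0.43, none past 1.5-fold, with Ikbke at 15.9 CPM in TCKO and 13.4 CPM in WT, Il6ra at 15.9 and 18.2 CPM in TCKO and WT, and Peli1 at 177 and 131 CPM in TCKO and WT. This sum mixes T cell classes whose shares differ between the libraries, and no target passed there when total UMIs replaced the TMM factors or when doublets were kept.

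NK cells of the same tumours, which kept Mir155hg, gave no call. Of 9 targets tested, 0 were called by edgeR's quasi-likelihood test, while 0.624% of 8178 genes were called. The fit in NK cells took its spread entirely from the trend over genes. Ikbke was at 10.1 CPM in TCKO and 9.60 CPM in WT at day 9, and at 7.99 CPM in TCKO and 7.96 CPM in WT at day 12, so the 4 libraries lay close together. Peli1 was at 101.4 CPM in TCKO and 87.1 CPM in WT at day 9, and at 57.4 CPM in TCKO and 72.7 CPM in WT at day 12. Il6ra had 0 and 1 UMIs in TCKO, against 2 and 7 in WT, at day 9 and day 12. Inpp5d, Ets1, Jarid2, Cebpb and Tab2 had log2 ratios between -0.41 and 0.23, and Bach1 had fewer than 20 UMIs at both days. At day 9, 1 of 8 targets was past 1.5-fold in NK cells, Spi1, at 10.9 CPM in TCKO and 5.12 CPM in WT (log2 ratio 1.09, -0.26 to 2.55), beside 9.35% of 7558 genes higher and 11.1% lower. Its level was 1.23% and 0.649% of that in macrophages of the TCKO and WT library, and Lyz2 was at 0.840% and 0.195%. At day 12, 0 of 8 targets were past 1.5-fold, beside 6.79% of 8589 genes higher and 6.19% lower.

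The difference between T cells and untargeted cells was tested itself, with the genotype effect of 2 classes in 1 fit. Between CD8 T cells and NK cells, 0 of 10 targets and 0.0% of 8795 genes were called by edgeR's quasi-likelihood test. The 3 genes that rose in CD8 T cells were thus not called, and the same CD8 T cell sums enter this fit. The genotype effect was larger in CD8 T cells by 1.82 (SE 0.49, adjusted p 0.412) for Ikbke, by 4.10 (SE 1.22, adjusted p 0.449) for Il6ra and by 0.96 (SE 0.36, adjusted p 0.538) for Peli1, all on the log2 scale. Between CD8 T cells and monocytes or macrophages, 0.357% of 10916 genes and 1 of 10 targets were called. This was Ikbke, whose genotype effect was larger in CD8 T cells by 2.78 (SE 0.40, adjusted p 0.0278 in edgeR's quasi-likelihood test). The adjusted p was 0.00197 to 0.0169 over alternatives in scaling, cell filters and cell naming and with DESeq2's Wald test. None of these left out a library. Between other T cells and NK cells, 0 of 8 targets and 0.0241% of 8311 genes were called. The smallest p of the 8 was that of Inpp5d, with a log2 difference of -0.71 (SE 0.34).

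In monocytes or macrophages none of the 10 targets was called by edgeR's quasi-likelihood test, while 1.92% of 10709 genes were. The 2 smallest p of the 10 were those of Ikbke and Inpp5d, and both were lower in TCKO. Ikbke stood at 20.3 CPM in TCKO and 46.4 CPM in WT at day 9 (log2 ratio -1.19, -1.51 to -0.87), and at 19.4 CPM in TCKO and 27.2 CPM in WT at day 12 (-0.49, -0.76 to -0.21). Its fitted log2 fold change was -0.82 (SE 0.20, adjusted p 0.0660), the opposite direction to CD8 T cells. Inpp5d stood at 51.5 CPM in TCKO and 66.3 CPM in WT at day 9, and at 55.4 CPM in TCKO and 70.2 CPM in WT at day 12. Its log2 ratios of -0.37 and -0.34 were alike at the 2 days, with intervals below 0.

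The macrophage class was made of different cells in the 4 libraries, which is given beside these values. A cluster led by Cxcl10 and Cxcl9 held 809, 42, 51 and 39 cells in TCKO day 9, WT day 9, TCKO day 12 and WT day 12. A cluster led by Gbp2b and Il18bp held 4, 71, 44 and 710 cells, and one led by Vcan and Ms4a4c held 15, 77, 352 and 542. Ikbke was lower in TCKO within 2 of 3 single clusters with 20 UMIs and 10 cells per library at day 9, and within 2 of 4 at day 12, with log2 ratios of -1.30 to 0.90 and -0.64 to 0.39. Inpp5d was lower within 4 of 5 clusters at day 9 and 5 of 7 at day 12.

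The difference in Cebpb had opposite directions at the 2 days in these cells. It stood at 134.7 CPM in TCKO and 179.8 CPM in WT at day 9 (log2 ratio -0.42, -0.56 to -0.27), and at 145 CPM in TCKO and 90.2 CPM in WT at day 12 (0.69, 0.57 to 0.80). The WT libraries lay at both ends, and the TCKO libraries between them. These signs were also seen inside single clusters: Cebpb was lower in TCKO in 5 of 5 at day 9 and higher in 7 of 7 at day 12. Spi1, at 889 CPM in TCKO and 788 CPM in WT at day 9 and at 609 CPM in TCKO and 721 CPM in WT at day 12, differed by log2 ratios of 0.17 (0.11 to 0.24) and -0.24 (-0.29 to -0.19). Il6ra, Peli1, Bach1, Jarid2 and Tab2 had log2 ratios between -0.18 and 0.19 at both days. At day 9, 1 of 10 targets was past 1.5-fold, Ikbke, which was lower, beside 12.6% of 10115 genes lower and 11.7% higher. At day 12, 2 of 10 were past it, Cebpb and Ets1, both higher, beside 8.18% of 10683 genes higher and 5.63% lower.

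In dendritic cells no target was called by edgeR's quasi-likelihood test. In conventional dendritic cells 1 (cDC1), 9 targets were tested, and 0.503% of 7953 genes were called. Ets1 had the smallest p of the 9, with a fitted log2 fold change of -1.67 (adjusted p 0.0814 in edgeR's quasi-likelihood test). It was at 20.01 CPM in TCKO and 62.2 CPM in WT at day 9, and at 2.03 CPM in TCKO and 8.81 CPM in WT at day 12. T cell transcripts moved with it: the summed level of 6 T cell markers, all 6 detected except Cd5 in TCKO day 12, was 148 and 18.3 CPM in TCKO cDC1, against 876 and 106 CPM in WT cDC1, at day 9 and day 12. Cd3e was at 20.01 and 1.36 CPM in TCKO and at 123 and 13.2 CPM in WT, and the part of T cell RNA in the Ets1 values was not tested. Peli1 in cDC1 was at 61.3 CPM in TCKO and 94.0 CPM in WT at day 9, and Tab2 at 30.0 CPM in TCKO and 58.5 CPM in WT. Bach1 had log2 ratios of -1.19 and -0.45 at day 9 and day 12. Inpp5d, Il6ra, Jarid2 and Spi1 lay between -0.41 and 0.41, and Ikbke had fewer than 20 UMIs at both days. Past 1.5-fold in cDC1 at day 9 were 5 of 9 targets, all lower in TCKO, beside 28.8% of 7509 genes in either direction. At day 12 they were Ets1, lower, and Cebpb, higher, 2 of 9 beside 17.8% of 7727 genes.

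In conventional dendritic cells 2 (cDC2), 9 targets were tested and 0 called, while 0.255% of 8240 genes were called. The smallest p of the 9 was that of Inpp5d. Inpp5d was at 54.7 CPM in TCKO and 82.1 CPM in WT at day 9 (log2 ratio -0.59, -0.91 to -0.25), and at 47.6 CPM in TCKO and 64.0 CPM in WT at day 12 (-0.43, -0.89 to 0.02). It was the 1 target of 10 past 1.5-fold in cDC2 at day 9, beside 23.0% of 8883 genes in either direction. At day 12, 2 of 9 were past it, Cebpb and Ets1, both higher, beside 20.2% of 7602 genes. Ets1 was there at 9.85 CPM in TCKO and 4.45 CPM in WT, from 12 and 10 UMIs, and the 6 T cell markers summed to 70.6 CPM in TCKO cDC2 and 45.3 CPM in WT cDC2, whose part was not tested. The other pairs with 20 UMIs or more had log2 ratios between -0.42 and 0.32.

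Directions were also counted across deleted and untargeted classes. Over the pairs of libraries with at least 20 UMIs in the 6 classes and 2 days, Tab2 was lower in TCKO in 12 of 12, with 2 intervals below 0. Of 4409 genes with enough UMIs in all 12 pairs, 0.567% were lower in every pair and 0.454% higher. Inpp5d was lower in 10 of 12, with 4 intervals below 0, and higher in both pairs of NK cells (log2 ratios 0.11 and 0.06), while 7.85% of these genes were lower in 10 or more pairs. Jarid2 was higher in 10 of 11 pairs, with 1 interval above 0, while 7.21% of the 4409 genes were higher in 10 or more of 12 pairs. Classes of a day come from the same libraries, so these pairs are not independent. For Tab2 and Inpp5d this is the direction opposite to that of the 3 genes that rose in CD8 T cells.

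The level of most targets differed far more between cell classes than between genotypes. Spi1 was highest in the myeloid classes, with median CPM over the 4 libraries of 777 in cDC2, 755 in monocytes or macrophages and 577 in cDC1, against 5.55 to 10.5 in the 3 lymphocyte classes. Its 3 myeloid ranges overlapped among themselves. Ets1 had the reverse order, with medians of 198 in other T cells, 191 in CD8 T cells and 156 in NK cells, ranges that overlap, and 7.88 to 25.4 in the myeloid classes. Cebpb (median 140.0), Bach1 (69.3) and Jarid2 (87.6) were highest in monocytes or macrophages, where the lowest library lay above the highest of every other class.

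Il6ra had medians of 73.4 CPM in monocytes or macrophages and 61.2 in cDC2, whose ranges overlap, then 38.7 in cDC1, 24.1 in CD8 T cells, 2.82 in other T cells and 0.890 in NK cells, where each range from cDC1 on overlapped the next. Inpp5d was highest in cDC1, with a median of 87.0 CPM and a range above that of monocytes or macrophages but not of cDC2, and lowest in CD8 T cells, with 29.9, where the range overlapped that of other T cells. Peli1 was highest in other T cells (199), apart from CD8 T cells (125) and the rest. Tab2 was highest in NK cells (77.3), with the remaining 5 classes overlapping at 34.2 to 49.8. Ikbke had medians of 23.7 CPM in monocytes or macrophages, 17.7 in CD8 T cells and 13.4 in other T cells, 3 overlapping ranges. NK cells had a median of 8.79 CPM, within the range of CD8 T cells, and cDC2 (2.91) and cDC1 (0.964) were lower than all of these in every library.

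**Figure D4:**
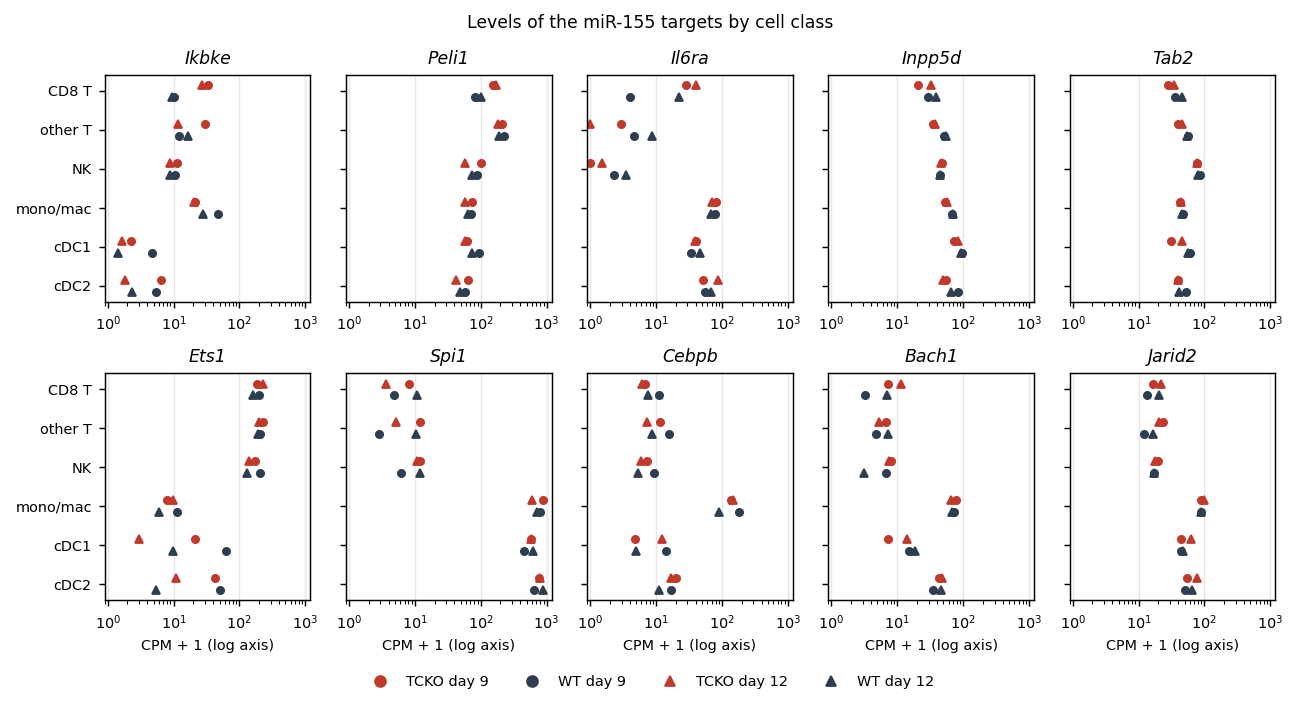
Level of each target in 6 cell classes, as CPM plus 1 on a log axis, 1 point per library (TCKO in red above WT in dark blue, circles day 9, triangles day 12). Spi1 lies between 459.6 and 891 CPM in the myeloid classes and between 1.84 and 11.2 CPM in lymphocytes, Ets1 has the reverse order, and Ikbke separates by genotype in CD8 T cells.

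Across the 24 class sums (6 classes in 4 libraries), the genes with the most similar pattern were named by Pearson's r of log2(CPM + 1) among 11608 genes. The points share libraries, so r is a description. Ets1 was closest to Cd96, Lck and Cd2 (r 0.98 each). Spi1 was closest to H2-DMb1, Alox5ap and Zfp385a (0.99 each), Jarid2 to Fcgr2b, Ctss and Ctsz, Bach1 to Stxbp6, Ctss and Gsdmd, and Cebpb to Abcd2, RP23-81F19.2 and C1rl. Il6ra was closest to Susd3, Ccdc28b and Tiam1 (0.90 to 0.93), Peli1 to Tdrp, Pydc3 and S1pr1, Inpp5d to Zyx, Fgl2 and Olfm1, Ikbke to Fyb, Slc28a2 and Lcp2, and Tab2 to Khdc1a, Arhgef5 and Klra8, with r of 0.82 to 0.92 in these last 4.

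The genes around the targets were read from lists of pathways in CD8 T cells, with the same test. Of all 8346 genes tested there, 4.27% rose and 5.21% fell, the shares to set beside each list below. Of 38 other reported targets of miR-155, 32 were tested, 3 rose and 1 fell, with a median log2 fold change of 0.32. Bach2, a repressor that keeps T cells from effector differentiation, stood at 27.5 and 23.5 CPM in TCKO at day 9 and day 12, against 6.37 and 9.68 CPM in WT (log2 fold change 1.99, adjusted p 0.00236 in edgeR's quasi-likelihood test). Fos, an AP-1 factor, stood at 121 and 267 CPM in TCKO, against 39.5 and 88.3 CPM in WT (1.72, adjusted p 1.14e-05). Socs1, an inhibitor of JAK kinases, stood at 130.5 and 123 CPM in TCKO, against 37.0 and 81.0 CPM in WT (1.44, adjusted p 0.000823). The gene that fell was Ctla4, an inhibitory receptor of activated T cells, at 17.2 and 23.5 CPM in TCKO and 56.7 and 33.9 CPM in WT (-1.28, adjusted p 0.00889). Tle4, a corepressor, was past 1.5-fold higher at both days but not past the test (1.04, adjusted p 0.100). In NK cells, cDC1, cDC2 and monocytes or macrophages none of this list was called by edgeR's quasi-likelihood test, of 31, 30, 34 and 36 tested.

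Around Il6ra, 2 of 10 tested genes of interleukin-6 signalling rose and 0 fell. Socs3, the feedback inhibitor of this receptor, stood at 171.6 and 123 CPM in TCKO, against 16.0 and 26 CPM in WT (log2 fold change 3.12, adjusted p 9.58e-07 in edgeR's quasi-likelihood test). Il6st, which encodes the signalling chain gp130, stood at 18.1 and 15.7 CPM in TCKO, against 5.17 and 10.3 CPM in WT (1.57, adjusted p 0.0287). The ligand-binding chain and the signalling chain of the receptor were thus both higher in TCKO. The rise of Socs3 was not seen in T cells alone. It also rose in cDC1, at 71.3 and 68.4 CPM in TCKO and 28.6 and 24.7 CPM in WT (1.45, SE 0.21, adjusted p 0.0132), and in monocytes or macrophages, at 372 and 117 CPM in TCKO and 123 and 82.5 CPM in WT (1.05, SE 0.23, adjusted p 0.0401). In NK cells it did not pass (0.46, adjusted p 0.805).

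Around Ikbke, Peli1 and Tab2, 3 of 25 tested genes of interleukin-1 receptor, Toll-like receptor and NF-kB signalling rose and 0 fell. They were Relb, an NF-kB subunit (log2 fold change 1.39, adjusted p 0.000756), Nfkbiz, a nuclear IkB protein (1.23, adjusted p 0.0160), and Ikbkb, the kinase IKK-beta (0.79, adjusted p 0.0315). Around Inpp5d, 0 of 15 tested genes of the PI3K pathway rose and 1 fell, the adaptor Dok2 (-0.75, adjusted p 0.0312). Inpp4b, another phosphoinositide phosphatase, was past 1.5-fold higher at both days and did not pass (0.82, adjusted p 0.0598). In NK cells, which were not targeted, Inpp4b rose, at 25.8 and 17.0 CPM in TCKO and 4.48 and 4.34 CPM in WT (2.18, SE 0.39, adjusted p 1.67e-05 in edgeR's quasi-likelihood test).

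Around Jarid2, 0 of 9 tested genes of Polycomb repressive complex 2 rose and 1 fell. This was the catalytic subunit Ezh2, at 41.1 and 18.3 CPM in TCKO, against 91.4 and 88.3 CPM in WT (log2 fold change -1.29, adjusted p 0.00200 in edgeR's quasi-likelihood test). Suz12 was lower (-0.86, adjusted p 0.0641) and Phf1 higher (1.15, adjusted p 0.0563) without passing. Of 10 tested genes of the list around Bach1, whose repression by Bach1 was not tested, 1 rose and 0 fell. The gene that rose was Nfe2l2, which encodes the antioxidant factor NRF2 (2.15, adjusted p 5.36e-05). Mafg was past 1.5-fold lower at both days without passing (-1.04, adjusted p 0.123). In monocytes or macrophages 4 of 12 tested genes of this list rose and 0 fell, beside 1.92% of 10709 genes called in either direction. They were Nfe2l2 (0.96, SE 0.19, adjusted p 0.0252), Gclm, Hmox1 and Maff. Hmox1 was the 1 gene of this list, of 11 tested, that rose in NK cells, beside 0.624% of 8178 genes called in either direction. Nfe2l2 did not pass in NK cells (0.70, adjusted p 0.167) or in cDC1 (1.32, adjusted p 0.0736). Of 11 tested Ets and C/EBP family genes, 0 rose and 1 fell, Elk3 (-1.18, adjusted p 0.0167).

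Of all genes tested in CD8 T cells, 9.48% were called in either direction, and the lists gave between 1 of 15 and 2 of 10. The lists were chosen with earlier results of these data known. The naive-like share of the class, 88.0% and 76.5% in TCKO at day 9 and day 12 against 17.3% and 48.0% in WT, moved with these calls, and its part in them was not tested.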

How the data were processed

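The matrices hold unnormalised UMI counts (genes by barcodes) as deposited. The submitters' processing notes name Cell Ranger 2.0.2 and mm10. Cells were kept with at least 200 genes, at most 10% mitochondrial and 5% haemoglobin UMIs. Doublets were removed by Scrublet score at an assumed 0.8% per 1000 barcodes (112, 25, 34 and 109 in TCKO day 9, WT day 9, TCKO day 12 and WT day 12), since Scrublet's own threshold called only 1 to 22. Clustering (scanpy 1.11.5, 2000 variable genes, 30 components, 15 neighbours, Leiden resolution 1, and 2 for T and NK cells) left out the 10 targets and Mir155hg. Clusters were named from marker lists, with thresholds on Cd8b1 (at least 5 per 10000 UMIs), Lyz2 (at most 5), haemoglobin and naive-like clusters (at least 5 of 9 markers) chosen after looking at the data.

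UMIs were summed per class and library. Tests used edgeR 4.0.16 in R 4.3.3, namely its quasi-likelihood test after filterByExpr and TMM scaling, with Benjamini-Hochberg adjustment over all genes tested and a threshold of 0.05. Genotype and day were the terms, and a class needed 50 cells or more in each library. The test was tested on simulated data with known answers. Interactions used library as a block, class, and class by genotype. Intervals are exact Poisson for levels and exact conditional for ratios, and they cover counting error only. The 3' UTRs came from GENCODE vM21 and the mature miRNA from RefSeq GRCm38.p6. Nothing says that libraries came from separate preparations, so p-values reach no further than the spread between these libraries. The genotype fits took most of that spread from the trend over genes.

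All 10 targets were read in every single class that was tested, by their values or by the range of those left. Mature dendritic cells and regulatory T cells were given for some targets only. CD4 T cells, plasmacytoid dendritic cells and B cells had too few cells for a test, and their values are not given. From the other lists, up to 4 genes past the adjusted p and up to 4 past 1.5-fold in 1 direction at both days with 20 UMIs per pair are named. Values of list genes in untargeted classes were added after their values were seen. The 3 genes most like each target were taken among genes with at least 50 UMIs. The targets and the lists were chosen with earlier results of these data known. Alternatives were other scaling, filters, DESeq2 1.42.0, other terms, leaving out each library, other cell filters and naming each cell by its own markers. Unnamed clusters (402, 63, 232 and 280 cells in the order above) were in no comparison.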

Additional observations from a re-analysis of the deposited data

Results flagged for a closer look

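The genotype effect of Ikbke differed between CD8 T cells and monocytes or macrophages, by 2.78 on the log2 scale in the test of the difference itself (SE 0.40, adjusted p 0.0278 in edgeR's quasi-likelihood test). Alternatives in scaling, cell filters, cell naming and DESeq2's Wald test gave an adjusted p of 0.00197 to 0.0169, and none left out a library. Ikbke was at 32.5 and 26.2 CPM in TCKO CD8 T cells, against 9.16 and 8.47 CPM in WT CD8 T cells, at day 9 and day 12. In monocytes or macrophages it was at 20.3 and 19.4 CPM in TCKO, against 46.4 and 27.2 CPM in WT. The make-up of both classes differed between the libraries, and its part in the difference was not tested.

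Cebpb in cDC1 was lower in TCKO at day 9 and higher at day 12. At day 9 it was at 3.75 CPM in TCKO and 13.4 CPM in WT, a log2 ratio of -1.83 (-4.19 to -0.14) from 3 and 29 UMIs. At day 12 it was at 11.5 CPM in TCKO and 3.96 CPM in WT, a log2 ratio of 1.54 (0.29 to 2.89) from 17 and 9 UMIs. The difference between the days was not tested.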

How the results depend on the processing

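Day is a term of the fit, so TCKO and WT were compared within days. No paired analysis by replicate number was possible because there is 1 library per genotype and day and the labels carry no such numbers. No direction of a called result reversed under any alternative. The 3 calls in CD8 T cells fell to 0 under DESeq2's Wald test, without the day term, in naive-like clusters alone and in the other clusters alone, and leaving out 1 library, with genotype as the only term, gave 0 to 3. Over all genes these fits called 66 rising and 80 falling with DESeq2, 1 and 1 without the day term, 13 and 44 in naive-like clusters and 27 and 12 in the others, and 0 without either TCKO library, against 356 and 435. In all T cells summed, the 3 calls became 0 with total UMIs, DESeq2, no day term, no doublet removal and cells named by their own markers, 1 with at most 5% mitochondrial UMIs, and 0 to 3 leaving out 1 library. In cDC1, 0 calls became 1 (Ets1) with no filter on low counts, at most 5% mitochondrial UMIs and no doublet removal, and 0 to 1 leaving out 1 library (WT day 12). In monocytes or macrophages 0 became 1 (Ikbke) with no filter. In the interaction of CD8 T cells with monocytes or macrophages 1 became 2 without doublet removal.

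Counts past 1.5-fold rested on few UMIs. In CD8 T cells the 6 of day 9 became 3 at 2-fold and 2 in naive-like clusters alone (none of the 6, but Inpp5d at -0.63 and Tab2 at -0.99, lower in TCKO), and the 3 of day 12 became 5 at a minimum of 1 UMI, 1 at 2-fold and 0 in naive-like clusters. In other T cells the 2 of day 9 became 4 with median-of-ratios factors, at most 5% mitochondrial UMIs or no doublet removal, 5 at 1 UMI and 1 at 50 UMIs, and the 0 of day 12 became 1 with TMM or median-of-ratios factors or a mean over cells and 2 at 1 UMI. In NK cells the 1 of day 9 became 2 at 1 UMI and 0 at 50 UMIs, and the 0 of day 12 became 2 at 1 UMI and 1 with cells named by their own markers. In monocytes or macrophages the 1 of day 9 became 2 with at most 5% mitochondrial UMIs, no doublet removal, own markers or a mean over cells, and the 2 of day 12 became 0 at 2-fold or without doublet removal. Naming cells by their own markers kept 144 of 200 levels inside their interval and gave no cDC2. In CD8 T cells the 1 Polycomb gene became 2 with total UMIs and 3 with no filter, and the 1 PI3K gene became 3 with total UMIs and 2 with no filter. Apart from fewer genes or samples, the causes were not tested. The 81 CD8 T cells of TCKO day 12 limit every value of that library.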

Other observations

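Mature dendritic cells, which carry antigen from tumours to lymph nodes and were not targeted, had the highest Mir155hg level of the named classes in the TCKO libraries. It was at 21.2 and 41.6 CPM in TCKO at day 9 and day 12 (13 and 64 UMIs), against 4.21 and 20.9 CPM in WT (2 and 19 UMIs). With under 50 cells in WT day 9 (46) the class was left out of the tests. Of the targets in these cells, Peli1 was at 111 and 118 CPM in TCKO, against 141 and 137 CPM in WT. Tab2 was at 53.8 and 61.8 CPM in TCKO, against 58.9 and 68.1 CPM in WT. Jarid2 was at 22.8 and 24.1 CPM in TCKO, against 35.8 and 20.9 CPM in WT. Spi1 was at 463 and 315 CPM in TCKO, against 301 and 377 CPM in WT, so its order changed between the days. Ets1 was at 4.89 CPM in TCKO and 50.5 CPM in WT at day 9, from 3 and 24 UMIs, and at 6.50 and 6.59 CPM in TCKO and WT at day 12. The 6 T cell markers (Cd28 had 0 UMIs in TCKO day 9) summed to 52.1 and 25.4 CPM in these cells in TCKO, against 587 and 49.4 CPM in WT, and their part in the Ets1 values was not tested.

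Regulatory T cells were too few for a test, with 12 and 23 cells in TCKO and 33 and 44 in WT. Ets1 was at 406 and 360.3 CPM there in TCKO, against 334 and 192 CPM in WT. Ikbke was at 24.6 and 12.2 CPM in TCKO, against 36.1 and 26.4 CPM in WT, from 2 UMIs in each TCKO library. Peli1 was at 135 and 189 CPM in TCKO, against 234 and 170 CPM in WT.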
